A study of Macaca mulatta with 40 samples.

Results

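The RNA of the signal recognition particle was followed through 40 rhesus monkey muscle libraries as all the genes whose symbol in the gene name table is exactly Metazoa_SRP. There were 3419 such genes, called copies here, among the 35432 genes of each library (9.65%), 24186 of which have a symbol. Together they took 680622493 of the 7007201337 counts of the 40 libraries.

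The signal recognition particle binds the signal sequence of a secreted or membrane protein while it is being made and brings the ribosome to the endoplasmic reticulum, in muscle also to the related sarcoplasmic reticulum. Its scaffold is 7SL RNA, a short non-coding RNA made by RNA polymerase III, on which the proteins SRP9 and SRP14 hold the Alu domain and SRP19, SRP54, SRP68 and SRP72 the S domain. Primate genomes carry a few working 7SL genes and a large number of copies and fragments of them, and the Alu repeats descend from the same RNA. Reads from near-identical copies can therefore be placed on the wrong copy, and how the counting treated reads with several matches is not stated.

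The muscle was the vastus lateralis of the thigh, taken after death from animals on long-term calorie restriction (CR, labelled CALRES, n = 20) or on the control diet (CON, labelled CTR, n = 20). Each library is 1 animal, and RNA of all cells of the tissue was read after removal of ribosomal RNA. The 4 libraries CON 2, CON 8, CR 2 and CR 3 are those listed as degraded; the study left out 4 samples for degraded RNA, and the labels do not mark them. The other 36 libraries, 18 CON and 18 CR, were from animals that died at 30.6 ± 5.26 years (SD, 21.65 to 42) on the control diet and 30.4 ± 5.05 years (SD, 22.84 to 40.34) on CR, and the degraded libraries were from animals of 20.59 to 33.25 years. Library names are of 2 kinds, called set 1 (8 CON, 8 CR and the 4 degraded) and set 2 (10 CON and 10 CR), and what the names stand for is not stated. Sex and body weight are not in the labels and were not used.

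Between 86580429 and 329942965 reads were counted per library. Of 10 muscle fibre markers 8 were matched, among them TTN, ACTA1 and CKM, and each had at least 1628 counts in every library. CON 18 stood apart, with 72.3% of its counts on SRP RNA, and CON 11, CR 11 and CON 18 held the highest levels of U1 and 5.8S RNA. U1, the small nuclear RNA that recognises the 5′ splice site, was at 17698 CPM of other counts in CON 18, 241 in CR 11, 144 in CON 11 and at most 42.5 in the rest. CPM are counts for each 1000000 counts, and other counts are all counts not on SRP RNA. Results for the SRP RNA copies that rest on these libraries are given with and without them. In bulk tissue, a different number of cells of a type and a different amount of RNA per cell cannot be told apart.

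The SRP RNA counts sat on 3 copies. Copy 1 (ENSMMUG00000059393) held 385892365 counts over the 40 libraries, copy 2 (ENSMMUG00000060067) 209237910 and copy 3 (ENSMMUG00000055903) 83892685, which is 99.8% of all SRP RNA counts. The next copy, ENSMMUG00000049050, had 679770 counts, 123-fold fewer than copy 3. These were also the leading 3 copies in each of the 40 libraries, and always in that order. Among all genes, copy 1 was the leading gene of 8 libraries and ranked between 1 and 7 (median 2), copy 2 between 2 and 16 (median 6) and copy 3 between 3 and 48 (median 14.5). The number of copies that made up 90% of a library's SRP RNA counts was 2 or 3.

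The remaining 3416 copies had few counts. No count was given to 773 copies in any library. With the libraries pooled, 0 of 7007201337 counts allows a share of counts of up to 4.28e-08% for each. This bound covers counting error only, not the spread between animals or reads placed on another copy. Under 10 counts summed over the 40 libraries were found for 1969 copies, those without a count included, and the median copy had 5 counts in all. At least 10 counts in at least 1 library were reached by 817 copies, and in every library by 11. The plot of summed counts by rank shows the gap after the third copy and the long tail.

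**Figure D1:**
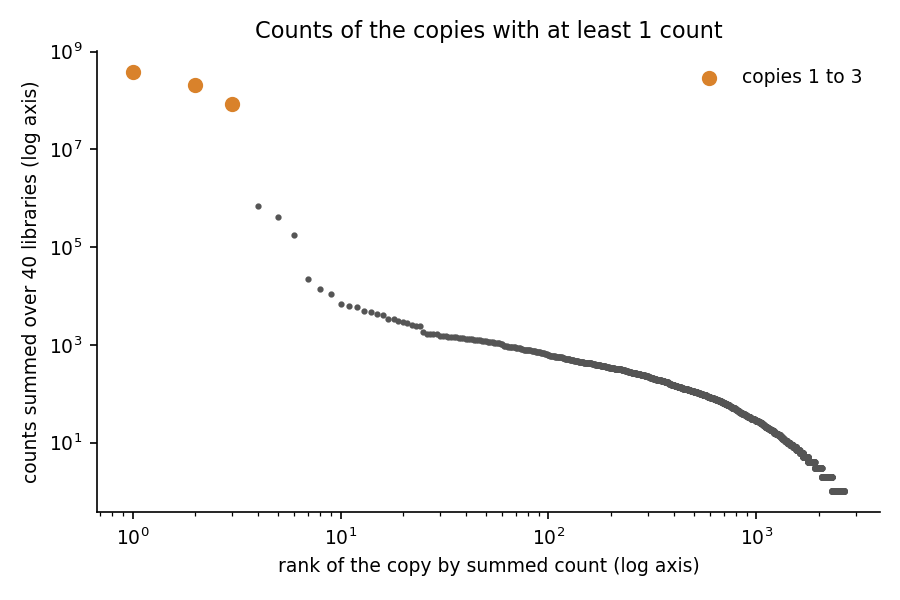
Counts summed over 40 libraries (log axis) against the rank of the copy by that sum (log axis), 1 point for each of the 2646 copies with at least 1 count. Copies 1 to 3 lie at 83892685 counts or more, and the fourth copy at 679770.

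Copy 1 held 57.2% ± 4.50 (SD, n = 36, 43.5 to 63.9%) of a library's SRP RNA counts, copy 2 30.8% ± 2.79 (25.7 to 37.2%) and copy 3 11.6% ± 2.85 (8.03 to 22.6%). The order of the 3 copies did not change while the SRP RNA share differed many-fold, as the bars of copy composition show. The lowest share of copy 1 and the highest of copy 3 were both in CON 11, and CR 4 (49.4%), CR 11 (49.8%) and CON 15 (50.1%) were the next lowest for copy 1. For copy 3, CON 15 (18.4%), CON 18 (15.5%) and CR 11 (15.2%) followed CON 11. All other copies together held 0.340% ± 0.204 (SD, n = 36), from 0.0574% in CON 18 to 1.12% in CON 11.

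The 7 copies after the third had summed counts from 5884 to 679770. ENSMMUG00000049050, the fourth copy, ranged from 4.23 CPM of other counts in CR 18 to 591 in CR 6. ENSMMUG00000041045, the fifth, had its highest counts in CON 11 (118296), CR 11 (84729) and CON 18 (42098), against a median of 4579 over the 40 libraries. These stood beside 176553677 other counts in CON 11, 98626385 in CR 11 and 62301467 in CON 18. ENSMMUG00000042506 ran from 7.23 to 213 CPM of other counts with its highest value in CON 18. The others, ENSMMUG00000051521, ENSMMUG00000047043, ENSMMUG00000046818 and ENSMMUG00000063040, had medians between 0.702 and 3.45 CPM of other counts over the 36 libraries.

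**Figure D2:**
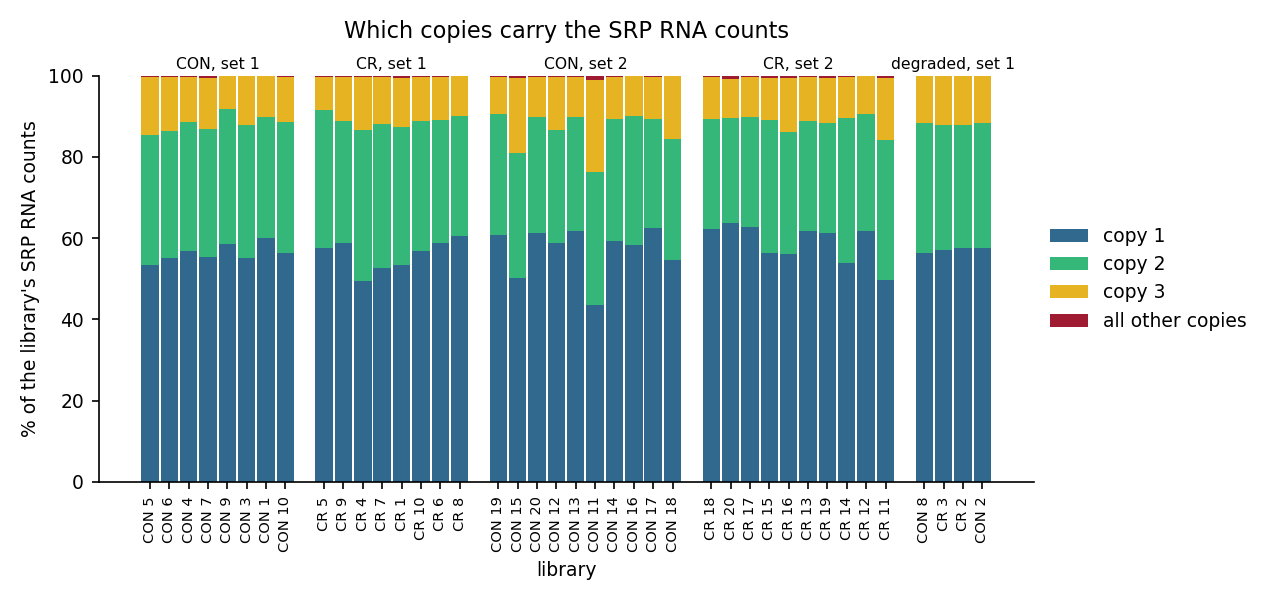
Percent of each library's SRP RNA counts on copies 1, 2, 3 and all others, 1 bar per library, grouped by diet and library set and ordered within a group by SRP RNA share. Copy 1 is the largest segment in all 40 libraries, and CON 11 has the smallest one (43.5%).

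Copy 2 stood lower against copy 1 in set 2 than in set 1. The ratio of copy 2 to copy 1 had a median of 0.570 in set 1 (n = 16, 0.491 to 0.753) and 0.480 in set 2 (n = 20, 0.402 to 0.756), and 11 of the 20 libraries of set 2 lay below every library of set 1. The ranges overlapped at the upper end, where CON 11 and CR 4 were the highest of their sets. By diet the medians were 0.554 in CON and 0.523 in CR with wide overlap. The degraded libraries lay at 0.525 to 0.572, inside the range of the others.

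SRP RNA took from 2.02% to 72.3% of a library's counts. Over the 36 libraries the median was 6.50%, with CON 18 at 10.7 times the median of all 40. In 11 of the 40 libraries the share was above 10%. The 95% Wilson interval of a share was at most 0.0172 percentage points wide, so counting error is far smaller than the spread between animals; it covers counting error only.

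In set 1, without the degraded libraries, the 8 CON libraries held 3.47, 3.66, 4.04, 5.71, 6.84, 7.03, 7.05 and 7.42% (CON 5, 6, 4, 7, 9, 3, 1 and 10). The 8 CR libraries of that set held 3.77, 4.53, 6.77, 9.70, 10.6, 15.9, 17.7 and 21.1% (CR 5, 9, 4, 7, 1, 10, 6 and 8). The 5 highest CR libraries were above all 8 of these CON libraries, while the 3 lowest lay within their range. The degraded CON libraries of the set were higher, at 19.7% (CON 2) and 9.44% (CON 8).

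In set 2 the CON libraries ran from 2.98% (CON 19) over a median of 5.95% to 15.3% (CON 17) and 72.3% (CON 18), and the CR libraries from 2.02% (CR 18) over a median of 5.48% to 16.1% (CR 11). The diets overlapped over nearly the whole range here. Leaving out CON 18, the median of the other 9 CON libraries was 5.45%.

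The degraded libraries held 9.44% (CON 8), 13.01% (CR 3), 15.4% (CR 2) and 19.7% (CON 2). All 4 were above the median of the other 36 and of the 16 others of set 1 (6.93%), and 26 of the 36 lay below all 4. They stayed below the highest library of set 1, CR 8. The plot of SRP RNA share by group shows the wide CR group of set 1, the single point of CON 18 and the high degraded libraries.

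**Figure D3:**
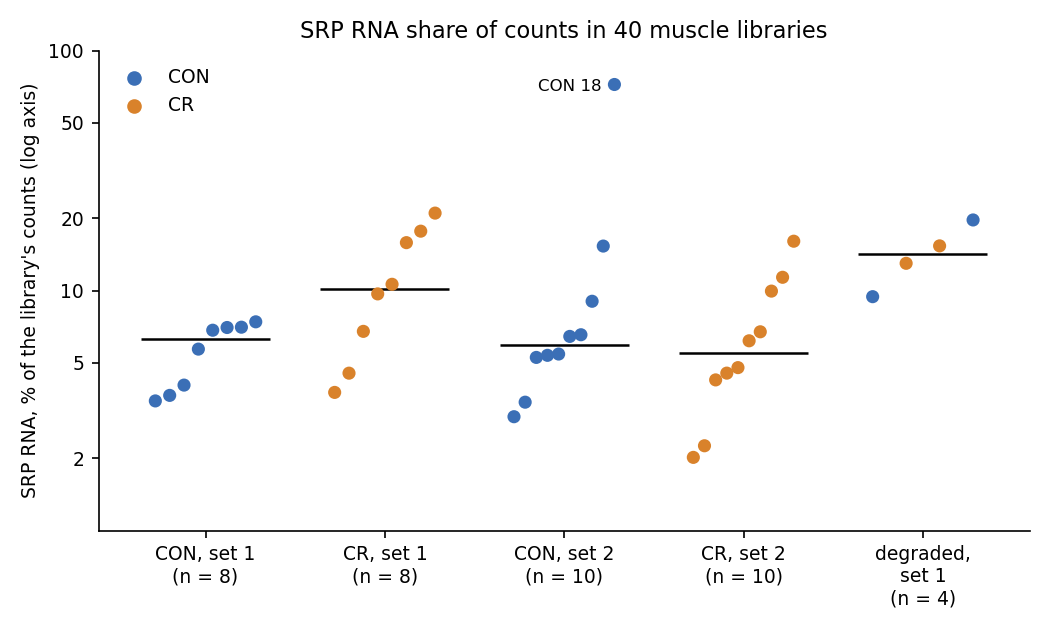
SRP RNA as percent of the library's counts (log axis) for each of 40 libraries by diet and library set, with the 4 degraded libraries on their own. A point is 1 library and a line the group median (6.28, 10.2, 5.95, 5.48 and 14.2% from left to right); CON 18 is at 72.3%.

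Diet was compared copy by copy over the 36 libraries with edgeR's quasi-likelihood test, in a model of library set, age at death and diet fitted to all 17175 genes that passed a filter on low counts. Few of the 3419 copies passed that filter, 76 with values above 0 and 37 below, so what follows does not speak for the others. None of the 3 leading copies passed the test for diet. The fitted log2 fold change of CR over CON was -0.70 (SE 0.69, p = 0.312) for copy 1, -0.73 (SE 0.68, p = 0.293) for copy 2 and -1.01 (SE 0.73, p = 0.177) for copy 3, with adjusted p from 0.608 to 0.718 (edgeR, Benjamini-Hochberg). Without CON 18 the direction turned, to 0.52 (p = 0.143), 0.54 (p = 0.110) and 0.41 (p = 0.228), so 1 library of 36 sets the sign.

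The levels of copy 1, in log2 CPM after TMM normalization, were 15.17 ± 1.42 in CON and 15.33 ± 0.96 in CR (SD, n = 18 each). CON 18 had 88848021 counts of copy 1, the highest value of all, and the mean log level and the fitted fold change differ in sign. The TMM factor of CON 18 was 0.311 against 0.806 to 1.39 in the other 35 libraries, and 0.970 with SRP RNA left out of the scaling; the fold changes of the 3 copies kept their sign under that scaling.

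At an unadjusted p under 0.01, the study's threshold, 2 copies were higher in CR and 0 lower. Of all genes tested 1.09% were called higher and 1.94% lower. ENSMMUG00000050746 had a log2 fold change of 1.79 (SE 0.62, p = 0.00622, edgeR) and ENSMMUG00000044745 of 1.30 (SE 0.47, p = 0.00836), with adjusted p of 0.321 and 0.327. No copy and no gene (0%) passed an adjusted p under 0.05 in edgeR, 18 copies had an unadjusted p under 0.05 (11.7% of all genes did), and DESeq2 called no copy after adjustment, with 0.332% of all genes called. The median fold change of the copies tested was 0.31 against 0.02 over all genes tested, and 52.2% of all genes lay above 0.

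Both of these copies were carried by few counts and by few animals. ENSMMUG00000050746 had 0 to 48 counts in CON libraries (median 8, highest in CON 5) and 0 to 116 in CR libraries (median 11, highest in CR 7, CR 20 and CR 16 with 116, 109 and 81). ENSMMUG00000044745 had 3 to 244 counts in CON (median 40) and 16 to 429 in CR (median 73, highest in CR 7, CR 16 and CR 20 with 429, 418 and 405). The same CR libraries are high for both, and the ranges of the diets overlap. CR 20 and CR 16 were also the libraries with the most copies at 10 counts or more (449 and 447, against a median of 137.5 over the 36). Without CR 20 the fold changes were 1.35 (p = 0.0268) and 1.01 (p = 0.0292), past the threshold no longer, and without CR 4 the second was at p = 0.0295. With each of the 36 libraries left out in turn, ENSMMUG00000050746 stayed under p = 0.01 in 30 fits and ENSMMUG00000044745 in 17 (edgeR).

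The next 3 copies by p-value, ENSMMUG00000054807, ENSMMUG00000046925 and ENSMMUG00000039923, had log2 fold changes of 1.13, 1.11 and 1.40 with p = 0.0112, 0.0122 and 0.0201 (edgeR) and did not pass. The plot of fold changes by level shows low copies on both sides of 0.

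The fitted diet difference had opposite signs in the 2 library sets, and CON 18 is in set 2. In set 1 alone copies 1, 2 and 3 had log2 fold changes of 1.25 (SE 0.51, p = 0.0243), 1.23 (SE 0.46, p = 0.0153) and 1.15 (SE 0.43, p = 0.0160), none past an unadjusted p of 0.01. In set 2 alone they were -2.08 (p = 0.0386), -2.11 (p = 0.0351) and -2.49 (p = 0.0184), and without CON 18 in that set -0.12, -0.07 and -0.26 with p from 0.578 to 0.883.

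The test of the difference itself, a diet by set term in the same edgeR fit, gave -3.47 (SE 1.06, p = 0.00242), -3.50 (SE 1.05, p = 0.00202) and -3.85 (SE 1.08, p = 0.00104), with adjusted p of 0.417, 0.417 and 0.378. In all, 2 copies were called higher and 8 lower at p under 0.01, where 0.396% and 1.48% of all genes were, and no gene (0%) passed the adjusted threshold, with 16 copies and 7.46% of all genes at p under 0.05; DESeq2 called 1 copy and 0.448% of all genes after adjustment. Leaving out CON 18, the term was -1.34 (p = 0.0511), -1.28 (p = 0.0499) and -1.41 (p = 0.0290), and the copies called were 3 in place of 10.

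**Figure D4:**
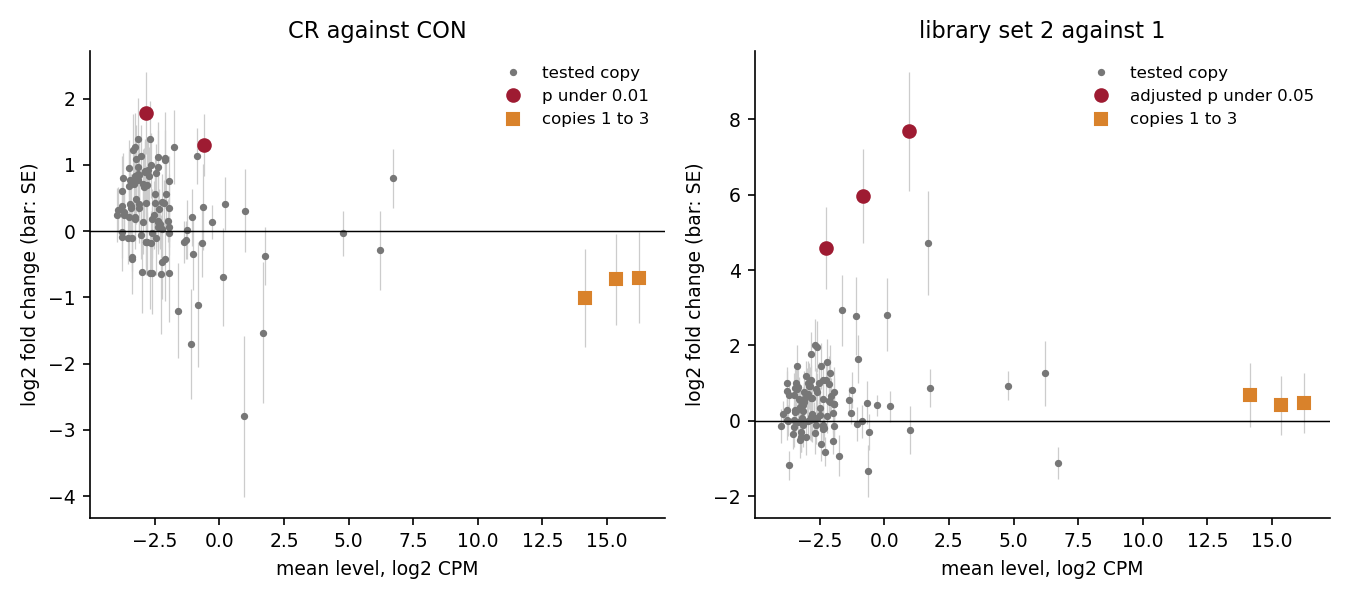
Fitted log2 fold change (bars, SE) against mean level in log2 CPM for the copies tested, CR against CON on the left and library set 2 against set 1 on the right. The copies marked as called (p under 0.01 on the left, adjusted p under 0.05 on the right) have mean levels below 1 log2 CPM, and copies 1 to 3 lie at the right of each panel with values from -1.01 to 0.69.

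Between the library sets, 10 copies were higher in set 2 and 1 lower at an unadjusted p under 0.01 (edgeR; 5.41% and 3.46% of all genes). After adjustment 3 were higher and 0 lower (1.02% and 1.39% of all genes), and DESeq2 called 13 higher and 1 lower (5.92% and 3.52%). Copies 1 to 3 were not among them, at 0.48 (SE 0.79, p = 0.549), 0.41 (SE 0.78, p = 0.602) and 0.69 (SE 0.85, p = 0.418). Without CON 18 these turned to -0.41, -0.53 and -0.35 (p from 0.145 to 0.337).

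The 3 called copies were nearly absent from set 1. ENSMMUG00000049229 had 0 to 6 counts in the 16 libraries of set 1 (9 at 0) and 0 to 4328 in the 20 of set 2 (median 70.5, 3 at 0). ENSMMUG00000039625 had 0 to 7 counts in set 1 (8 at 0) and 0 to 900 in set 2 (median 71), and ENSMMUG00000061583 0 to 5 in set 1 (8 at 0) and 0 to 295 in set 2 (median 21.5). The highest value of each was in CON 18, and the degraded libraries, all of set 1, had 0 to 8 counts.

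Their log2 fold changes were 7.68 (SE 1.57, adjusted p = 0.00455, edgeR), 5.96 (SE 1.25, adjusted p = 0.00592) and 4.59 (SE 1.09, adjusted p = 0.0178), values that depend on the small count added to each library and are no bounds. Their set 1 counts are all under 10, the minimum count of the filter in a library of median size, so these copies passed it mainly through set 2 and had to differ; no support is drawn from their calls. Without CON 18 the same 3 were called, at 6.10, 5.19 and 4.04, and without CON 18, CON 11 and CR 11 they did not pass the filter. In that last setting 3 other copies were called after adjustment, all higher in set 2. The share over all genes there is not given. ENSMMUG00000043487 missed the adjusted threshold with all libraries (4.72, adjusted p = 0.0550) and passed it without CON 18 (3.40, adjusted p = 0.00990). ENSMMUG00000039440 was at 2.93 (adjusted p = 0.0755).

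Within set 2 these copies followed SRP RNA. Spearman's rho between the copy and all SRP RNA, both CPM of other counts, was 0.79 for ENSMMUG00000049229, 0.91 for ENSMMUG00000039625, 0.86 for ENSMMUG00000061583 and 0.94 for ENSMMUG00000043487 over the 20 libraries, and 0.73, 0.54, 0.60 and 0.83 over the 16 of set 1, where counts are sparse. The points share their library and denominator. For the 2 copies called for diet, the values were -0.36 and -0.44 in set 2 and -0.20 and 0.01 in set 1, all at or below 0.01.

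In the degraded libraries the leading copies were fitted higher than in the other 36, with large errors. The log2 difference in a model of library set, age and diet over the 40 libraries (17157 genes tested, 44 copies with values above 0 and 58 below) was 0.66 (SE 1.07, p = 0.540) for copy 1, 0.62 (SE 1.05, p = 0.559) for copy 2 and 0.74 (SE 1.09, p = 0.4998) for copy 3. In log2 CPM, copy 1 had a median of 16.62 in the degraded libraries, 14.97 in the 36 and 15.06 in the 16 others of set 1. Without CON 18, CON 11 and CR 11 the differences were 0.97 (p = 0.102), 0.96 (p = 0.0852) and 1.12 (p = 0.0362), and within set 1 alone 1.13 (p = 0.0852), 1.10 (p = 0.0666) and 1.23 (p = 0.0324).

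No copy was called at an unadjusted p under 0.01 in this comparison (1.33% of all genes higher and 2.92% lower) or after adjustment (0% of all genes), and 2 were at p under 0.05 in edgeR (14.4% of all genes). DESeq2 called 0 copies higher and 2 lower at p under 0.01 (1.66% and 5.23% of all genes), and 0 after adjustment (2.61% of all genes). The lowest p-values in edgeR were those of ENSMMUG00000059861 at -2.35 (SE 0.93, p = 0.0152) and ENSMMUG00000064985 at -2.46 (SE 1.02, p = 0.0210), with 0 to 5 and 0 to 3 counts in the degraded libraries. ENSMMUG00000065317 (1.38), ENSMMUG00000049492 (1.18) and ENSMMUG00000052720 (-0.88) had p from 0.0645 to 0.0860.

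The copies after the third held 0.109 to 0.168% of SRP RNA counts in the degraded libraries, and 32 of the 36 other libraries were above all 4. Against other counts they were not low, at 152 to 348 CPM of other counts, with 2 of the 4 above and 2 below the median of the 36 (200) and likewise of the 16 others of set 1. Between 45 and 100 copies reached 10 counts in a degraded library, against 48 to 449 (median 137.5) in the others, and 2 of the 4 lay above and 2 below the median of the 16 others of set 1 (83). Set 2 had more such copies than set 1 (median 157), and each of its 20 libraries was above the set 1 median. Library depth also differed, with medians of 137575617 counts in degraded, 145003876 in the 16 others of set 1 and 200581360 in set 2 libraries, and its part in these numbers was not tested.

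No relation of SRP RNA to age at death passed the test. Copies 1 to 3 had slopes of -0.02 log2 units per year (SE 0.08 each, p from 0.825 to 0.830, edgeR), and no copy was called in either direction at p under 0.01 (0.21% of all genes higher and 0.303% lower), with 9 copies and 3.74% of all genes at p under 0.05 and none after adjustment (0% of all genes); no other tool was run for age.

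None of the genes for the particle's proteins passed p under 0.01 for diet. SRP9 and SRP14, which bind the Alu domain and slow elongation, were at 0.26 (SE 0.31, p = 0.399) and 0.16 (SE 0.19, p = 0.403). SRP54, the GTPase that holds the signal sequence, was at 0.05 (SE 0.15, p = 0.733), and SRP19, which helps it onto the RNA, at 0.07 (SE 0.19, p = 0.693). SRP68 and SRP72, which form a pair on the S domain, were at -0.41 (SE 0.21, p = 0.0555) and -0.14 (SE 0.14, p = 0.313). The median over the 6 was 0.06, against 0.02 over all genes tested. SRP68 was at 6.38 ± 0.52 log2 CPM in CON and 5.93 ± 0.65 in CR (SD, n = 18 each), and SRP9, the most variable of the 6, ran from 2.54 to 8.70.

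The receptor genes SRPRA and SRPRB, whose products receive the particle at the membrane, were at 0.04 (SE 0.22, p = 0.861) and -0.11 (SE 0.21, p = 0.604). In the NCBI annotation of Mmul_10 SRP9 lies at chr1:83317650-83331112, SRP54 at chr7:97060932-97107263, SRP68 at chr16:72417604-72461129 and SRPRA at chr14:119034737-119040762.

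Downstream and upstream of the particle, diet calls at p under 0.01 were also few. Of 12 translocon genes, which form and assist the SEC61 channel, and 5 signal peptidase genes none was called, with the lowest p in each direction for SEC62 (0.25, p = 0.0890) and SEC61B (-0.38, p = 0.223), and for SPCS3 (0.11, p = 0.597) and SEC11A (-0.11, p = 0.522). Of 12 RNA polymerase III subunits tested 1 was lower, POLR3E at -0.76 (SE 0.25, p = 0.00361, adjusted p = 0.321, edgeR), and POLR3G, at 0.47 (p = 0.0179), was the nearest above 0. Of 17 polymerase III factors none was called, with BRF1, a subunit of TFIIIB, at -0.46 (p = 0.0184) and SNAPC1 at 0.16 (p = 0.390).

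Between library sets, 5.41% of all genes were called higher in set 2 and 3.46% lower at p under 0.01. In these lists the calls were SRP19 among the particle's proteins (-0.66, SE 0.20, p = 0.00252, adjusted p = 0.0686), SEC62 (-0.80, SE 0.15, adjusted p = 0.00231) in the translocon and SEC11C (-1.16, SE 0.30, adjusted p = 0.0296) in the signal peptidase. RNA polymerase III had 3 lower, POLR3G (-0.84, adjusted p = 0.0215), POLR3GL (-0.50, p = 0.00256) and POLR3F (-0.57, p = 0.00865), and 1 higher, POLR3A at 0.55 (p = 0.00781). CON 18, of set 2, held the highest POLR3A level, 36.7 CPM of other counts against 4.01 to 34.8 in the other 39. A fit of POLR3A without CON 18 is not given. Polymerase III factors had 1 lower, SNAPC1 (-0.66, p = 0.00179), and 1 higher, GTF3C2 (0.52, p = 0.00555). In degraded libraries, where 1.33% of all genes were called higher and 2.92% lower, POLR3G was higher (1.16, p = 0.00155) and POLR3A (-0.93, p = 0.00499), GTF3C2 (-0.78, p = 0.00850) and GTF3C4 (-0.80, p = 0.00998) lower at p under 0.01, all with adjusted p above 0.05, and no gene of the particle, its receptor, the translocon or the signal peptidase passed.

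The other short RNA families found by symbol were far scarcer in the same libraries. No gene carried the symbol 7SK, U11, U6atac or U4atac, so those RNAs were not compared. Ribosomal RNA had been removed from the libraries, and the part of that in the 5.8S value was not tested. RNase MRP RNA, of an enzyme that cuts ribosomal RNA precursors, took 0.105% of the counts of the 40 libraries and RNase P RNA, of the enzyme that trims the 5′ end of tRNA precursors, 0.0748%, each with practically all of its counts on 1 gene of 2. U1 took 0.0179%, U2 0.00728%, 5.8S ribosomal RNA 0.00532%, U6 0.00268% over 1209 genes and Y RNA 0.00114%.

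RNase P RNA was the gene whose level followed SRP RNA most closely. Of 12758 other genes with a mean of at least 1 CPM of other counts, it had the highest Spearman's rho with SRP RNA over the 36 libraries (0.84, with 0.89 in set 1 and 0.84 in set 2). It ran from 147 CPM of other counts in CR 20 to 2834 in CR 8, and was at 1850 in CON 18, below CON 17 (2187), while CON 18 was the highest of all in SRP RNA. The degraded libraries had 970 to 1937, against a median of 705 in the 36.

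RNase MRP RNA had a rho of 0.71, with 0.83 in set 1 and 0.61 in set 2. CON 11 (89.8 CPM of other counts) and CR 11 (279) were among its lowest, while their SRP RNA was at 68947 and 191606, against a median of 72455 over the 40 libraries. Among the other families rho was 0.65 for U4, 0.58 for 5.8S, 0.53 for 5S, 0.47 for U1, 0.33 for U2, 0.19 for Y RNA and 0.06 for U6. In set 1 and set 2 rho was 0.77 and 0.52 for U4, 0.71 and 0.66 for 5.8S, and 0.60 and 0.63 for 5S. It was 0.56 and 0.49 for U1 and 0.66 and 0.20 for U2. The sets differed in sign for Y RNA (0.64 and -0.17) and U6 (0.49 and -0.32). All these values share the library, the depth and the denominator, and are given as a description.

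The next genes by likeness were ZNF124 (0.81), H3C1 (0.80), IFT20 (0.79), ZNF669 (0.78), ARL3 (0.78), H4C9 (0.78), MYL6 (0.78), CASP12 (0.78) and BNIP3L (0.78). H3C1 and H4C9 are replication-dependent histone genes and MYL6 encodes a myosin light chain. Of these genes, IFT20 was highest in CR 8, as was RNase P RNA, and the others, 8 of the 10 most alike, were highest in CR 11. Above 0.5 lay 1161 genes and below -0.5 189, with a median of 0.09 over all compared.

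**Figure D5:**
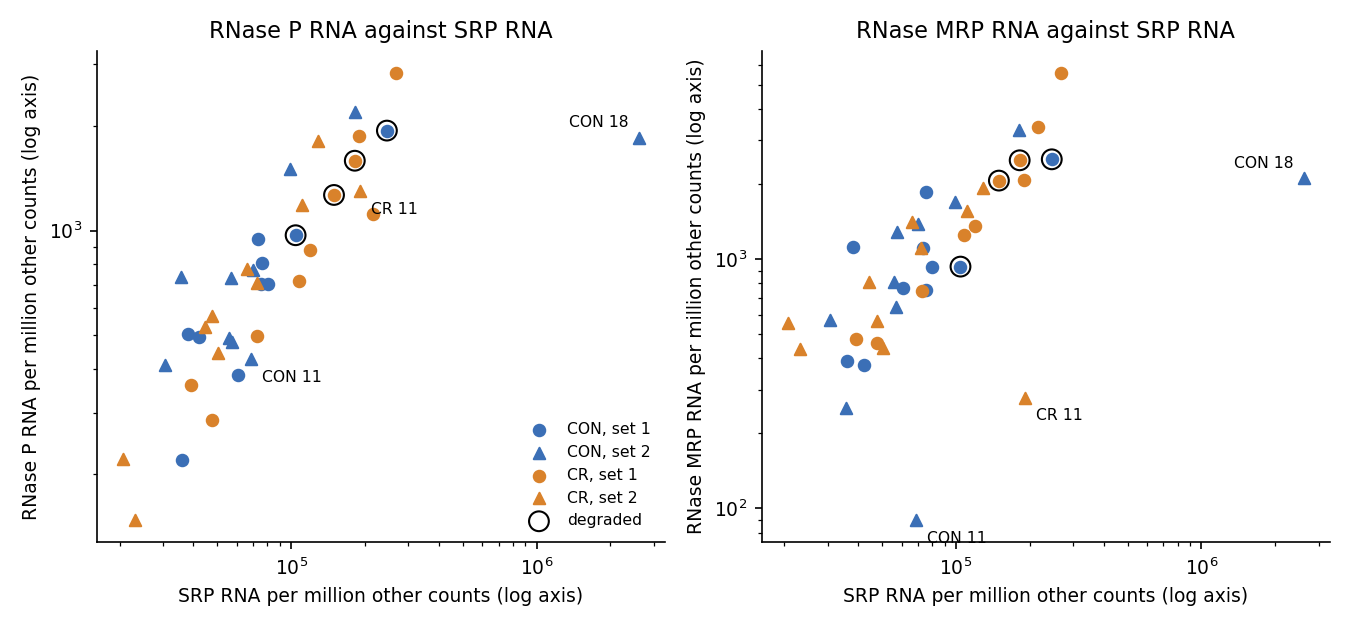
RNase P RNA (left) and RNase MRP RNA (right) against SRP RNA, each CPM of other counts on log axes, 1 point per library by diet and set with the 4 degraded libraries circled. RNase P RNA climbs with SRP RNA from 147 to 2834 while CON 18 lies far to the right at 1850, and CON 11 and CR 11 lie low on the right panel.

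The summed muscle fibre markers had a Spearman's rho of -0.63 with SRP RNA share over the 36 libraries and the red blood cell markers 0.66. Of the particle's pathway, rho was 0.48 for the SRP proteins, -0.40 for the receptor genes, 0.61 for the translocon, 0.43 for the signal peptidase, 0.41 for RNA polymerase III and 0.37 for its factors. The other marker lists lay between -0.05 (endothelial) and 0.49 (fibroblast). CON 18 had 42021 CPM of other counts on the muscle fibre markers, below the 54713 to 441586 of the other 39. It was the highest of all in the sums of the 5 adipocyte (239 against 7.35 to 224) and 4 endothelial markers (1122 against 75.8 to 903). The same held for the sum of the 3 red blood cell markers matched of 5 listed (62.3 against 0.675 to 56.4). Singly, ADIPOQ, LEP, FABP4, VWF, CDH5 and ALAS2 were highest in CON 18, and CIDEC, PLIN1, TEK, PECAM1, HBA and HBA1 were not. CON 18 was inside the range of the others for fibroblast (718), immune (48.6), Schwann cell (28.4) and plasma cell markers (99.6) and for mitochondrial mRNA. The part of these differences in the SRP RNA values was not tested.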

How the data were processed

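Stranded total RNA libraries of 40 muscles, with ribosomal RNA removed, were sequenced as read pairs. Per the study's methods, STAR placed trimmed reads on Mmul_10, and featureCounts assigned them to Ensembl genes. The deposited values are raw counts per gene, not normalized. Strand and multi-mapping settings are not given in the sources used here.

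Groups, ages and library names came from the labels. The members, gene lists and tests were chosen with earlier results of these data known. Symbols came from a table of gene names. The number of library pairs with identical counts was 0.

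All genes were tested in R 4.3.3 with edgeR 4.0.16 (filterByExpr by diet with a minimum count of 10, TMM, quasi-likelihood F-test, Benjamini-Hochberg adjustment). The model held library set, age and diet over 36 libraries, plus a diet by set term for that test, or a degraded term over 40 libraries. SE is the absolute log2 fold change over the square root of F. For levels, a prior count of 2 was added before taking log2 CPM. The p-values measure the spread between animals, and the test was tried on simulated counts.

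Named are the 10 copies with the highest mean share, the 5 with the lowest p for diet, set and degradation, all particle and receptor genes, the lowest p in each direction of the other lists for diet, and the 10 genes most like SRP RNA; pathway genes past p under 0.01 for set or degradation were chosen after seeing their values. Alternatives were DESeq2 1.42.0, RLE factors, SRP RNA left out of the scaling, no filter, diet alone, other sets of libraries, each library left out and the replicate number as a block. Leaving out CON 18, CON 11 and CR 11 together, or CR 8, and CON 18 from the single-set and interaction fits were added after seeing the data.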

Additional observations from a re-analysis of the deposited data

Results flagged for a closer look

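In 35 groups of 4 to 10 libraries the gap of the highest or lowest value to its neighbour was held against Dixon's critical value, and 4 passed; chance flags about 1 in 20. CON 18 held 72.3% SRP RNA, far from the other 9 CON libraries of set 2, and was also apart in the copies after the third, at 1501 CPM of other counts. CON 11 was apart in the same group for the share of SRP RNA counts on copies after the third, 1.12%, most of it on ENSMMUG00000041045. CR 11 was apart from the other 9 CR libraries of set 2 with 1105 CPM of other counts on the copies after the third.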

How the results depend on the processing

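For diet, 2 copies passed p under 0.01 with all choices as reported. The count was 6 with DESeq2, 125 with no filter on low counts, 0 with all 40 libraries, 1 in set 2 alone, 1 there without CON 18, and 0 to 7 with each library left out. Diet alone in the model gave 0 higher and 3 lower, the opposite direction to the 2 higher and 0 lower with library set and age; set 1 alone gave 3 higher and 0 lower, and RLE factors and SRP RNA left out of the scaling each gave 2.

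The diet fold changes of copies 1, 2 and 3 turned positive in set 1 alone (1.25, 1.23 and 1.15) and without CON 18, CON 11 and CR 11 (0.50, 0.51 and 0.42). With each library left out they ran from -0.85 to 0.52, -0.87 to 0.54 and -1.17 to 0.41, the upper ends without CON 18. The log2 ratio of median SRP RNA shares, CR over CON, was 0.15 and turned to -0.12 in set 2 alone.

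Labels give the diets the same replicate numbers. Over 17 pairs with the same number the median correlation of deviations was 0.0407 (-0.297 to 0.512), with 5 above 0.1. These values do not settle whether the numbers pair the animals, and the main fit has no replicate block. With the replicate block 0 copies were called and copies 1 to 3 were at 0.28, 0.31 and 0.19; the same 34 libraries with no block gave 1.

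For library set, 3 adjusted calls became 14 with DESeq2 and 4 without CON 18. Without CON 18, CON 11 and CR 11 there were again 3, on other copies. The fold changes of copies 1 to 3 turned to -0.41, -0.53 and -0.35 without CON 18. They turned to -0.43, -0.62 and -0.52 without CON 18, CON 11 and CR 11. For degradation, 0 calls became 2 with DESeq2, 2 without those 3 libraries, 1 in set 1 alone and 3 there without CR 8. For the interaction, 10 calls became 15 with DESeq2 (0.716% of all genes higher and 2.66% lower), 3 without CON 18 and 4 without those 3 libraries. For the settings that leave libraries out, the share over all genes is not given, and these counts are not read as results about the copies. The causes were not tested. The median copy had 5 counts over all libraries, and copies with so few counts did not pass the filter.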
